A study of Mus musculus with 28 samples.

Results

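Zfp868 and 6 genes that lie near it on mouse chromosome 8 were described across microglia and astrocytes of mice with and without a Cre transgene. The 7 genes are Zfp868, Zfp869, Gatad2a, Mau2, Sugp1, Ncan and Armc6, out of 40481 mouse genes counted. They were chosen by name, with their difference between Cre-positive and Cre-negative mice already known, so every Cre value of these genes is a description and carries no test. All 7 passed the filter on low counts in both cell types.

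Libraries came from the cortex, hippocampus and thalamus of 14 mice, and each mouse gave 1 library of microglia, sorted on Cd11b, and 1 of astrocytes, sorted on the astrocyte surface antigen ACSA-2. The floxed human APOE4 gene (APOE4fl/fl) was present in every mouse, Cre-negative mice included. Every mouse also received tamoxifen, as 2 doses of 100 mg per kg at 3.8 months, with collection 10 days later, so that carrying Cre and Cre activity cannot be told apart. Cre-positive mice carried ALDH1L1-CreERT, a tamoxifen-dependent Cre driven by the promoter of an astrocyte gene.

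In each cell type, APPPS1::APOE4fl/fl (amyloid-forming, Cre-negative) mice numbered 5 and APPPS1::APOE4fl/fl::ALDH1L1-CreERT (amyloid-forming, Cre-positive) mice 4. The amyloid-free groups, APOE4fl/fl and APOE4fl/fl::ALDH1L1-CreERT, held 2 mice each. A further APPPS1 Cre-positive animal, mouse 459, was left out by the rule that defined the gene set and is given apart. Nothing in the labels ties mice to litters, and the labels state neither the strain background nor the founder line of the Cre transgene.

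Zinc finger genes of the Zfp868 and Zfp869 kind often stand in clusters, and many of their proteins bind DNA and recruit the corepressor Trim28 through a KRAB domain. The other members have unrelated work. Mau2 is the partner of Nipbl in loading the cohesin ring onto DNA, Gatad2a is a subunit of the NuRD chromatin remodeller, and Sugp1 takes part in branch point recognition during splicing. Armc6 encodes a protein with armadillo repeats, and Ncan encodes neurocan, a chondroitin sulfate proteoglycan of the perineuronal matrix that astrocytes and neurons make.

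The 7 genes span 0.62 Mb of chromosome 8 (GRCm38), and 6 of them lie on the minus strand. Zfp868 (ENSMUSG00000060427) occupies chr8:69610857-69625548, Zfp869 (ENSMUSG00000054648) chr8:69706332-69710724 and Gatad2a (ENSMUSG00000036180) chr8:69907076-69996384. Mau2 (ENSMUSG00000031858) lies at chr8:70016123-70042734 and Sugp1 (ENSMUSG00000011306), the plus-strand member, at chr8:70042813-70072347, so that their starts stand 79 bases apart and face away from each other. Ncan (ENSMUSG00000002341) follows at chr8:70093085-70120873 and Armc6 (ENSMUSG00000002343) at chr8:70220172-70234466. Armc6 overlaps Sugp2 on the other strand, and no label says whether counting used strand, so reads of the overlap cannot be assigned with certainty.

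The promoter windows of Zfp868, the member with the largest Cre difference, and of the back-to-back pair Mau2 and Sugp1, which lie side by side, are shown here. They come from RefSeq (GRCm38.p6), run from 250 bases before to 50 bases after a transcript start, and read 5′ to 3′ on the gene's strand. Zfp868 has starts with windows at chr8:69625126-69625425 and chr8:69625499-69625798 (both minus strand). The windows shown for Mau2 (chr8:70042685-70042984, minus strand) and Sugp1 (chr8:70042537-70042836, plus strand) overlap, so parts of the 2 sequences are reverse complements of each other. Mau2 has a further start, with a window at chr8:70029464-70029763 (minus strand), which is not shown. Capitals mark matches, on either strand, to GGGCGG (the GC box), CCAAT (the CCAAT box) and GCCATNTT (the core bound by YY1).
Zfp868 start 1: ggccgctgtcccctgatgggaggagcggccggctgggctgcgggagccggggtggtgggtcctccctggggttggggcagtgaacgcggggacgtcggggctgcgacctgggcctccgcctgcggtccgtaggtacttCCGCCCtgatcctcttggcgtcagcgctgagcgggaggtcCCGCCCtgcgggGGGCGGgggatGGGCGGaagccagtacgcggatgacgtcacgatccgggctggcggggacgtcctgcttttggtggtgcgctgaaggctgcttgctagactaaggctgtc
Zfp868 start 2: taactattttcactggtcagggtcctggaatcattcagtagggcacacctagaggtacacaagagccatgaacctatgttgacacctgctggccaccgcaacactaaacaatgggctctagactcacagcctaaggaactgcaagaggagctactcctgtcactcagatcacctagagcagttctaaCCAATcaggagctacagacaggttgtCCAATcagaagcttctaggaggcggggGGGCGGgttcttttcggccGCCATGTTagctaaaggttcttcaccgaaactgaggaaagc
Mau2: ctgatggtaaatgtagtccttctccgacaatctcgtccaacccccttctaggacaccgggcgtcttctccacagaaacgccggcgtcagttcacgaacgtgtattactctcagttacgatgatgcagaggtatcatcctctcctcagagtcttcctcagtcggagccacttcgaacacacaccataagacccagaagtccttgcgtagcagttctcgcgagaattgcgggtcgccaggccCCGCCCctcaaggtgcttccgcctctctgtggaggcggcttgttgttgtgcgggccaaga
Sugp1: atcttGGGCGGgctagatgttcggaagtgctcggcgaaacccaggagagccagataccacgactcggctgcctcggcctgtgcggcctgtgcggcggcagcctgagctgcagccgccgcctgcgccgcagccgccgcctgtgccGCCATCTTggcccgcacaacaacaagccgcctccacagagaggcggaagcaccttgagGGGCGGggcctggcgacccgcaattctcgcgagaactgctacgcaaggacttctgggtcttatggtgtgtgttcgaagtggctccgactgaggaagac

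The first Zfp868 window was 71.3% G or C with 29 CpG and 4 matches to GGGCGG. The second was 50.7% G or C with 6 CpG, 2 CCAAT, 1 GGGCGG and 1 GCCATNTT. Over 32851 RefSeq mouse promoters of the same 300 bases the median was 52.7% G or C and 7 CpG, and 35.7% held GGGCGG, 37.4% CCAAT and 6.05% GCCATNTT. Also searched were CCGGAAG (ETS factors), GCATGCGC (NRF1) and TATAAA, found in 8.86%, 2.71% and 13.6% of promoters and in none of the 4 windows shown. No matches overlapped one another in these windows. A match is a string of letters, not evidence of binding.

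**Figure D1:**
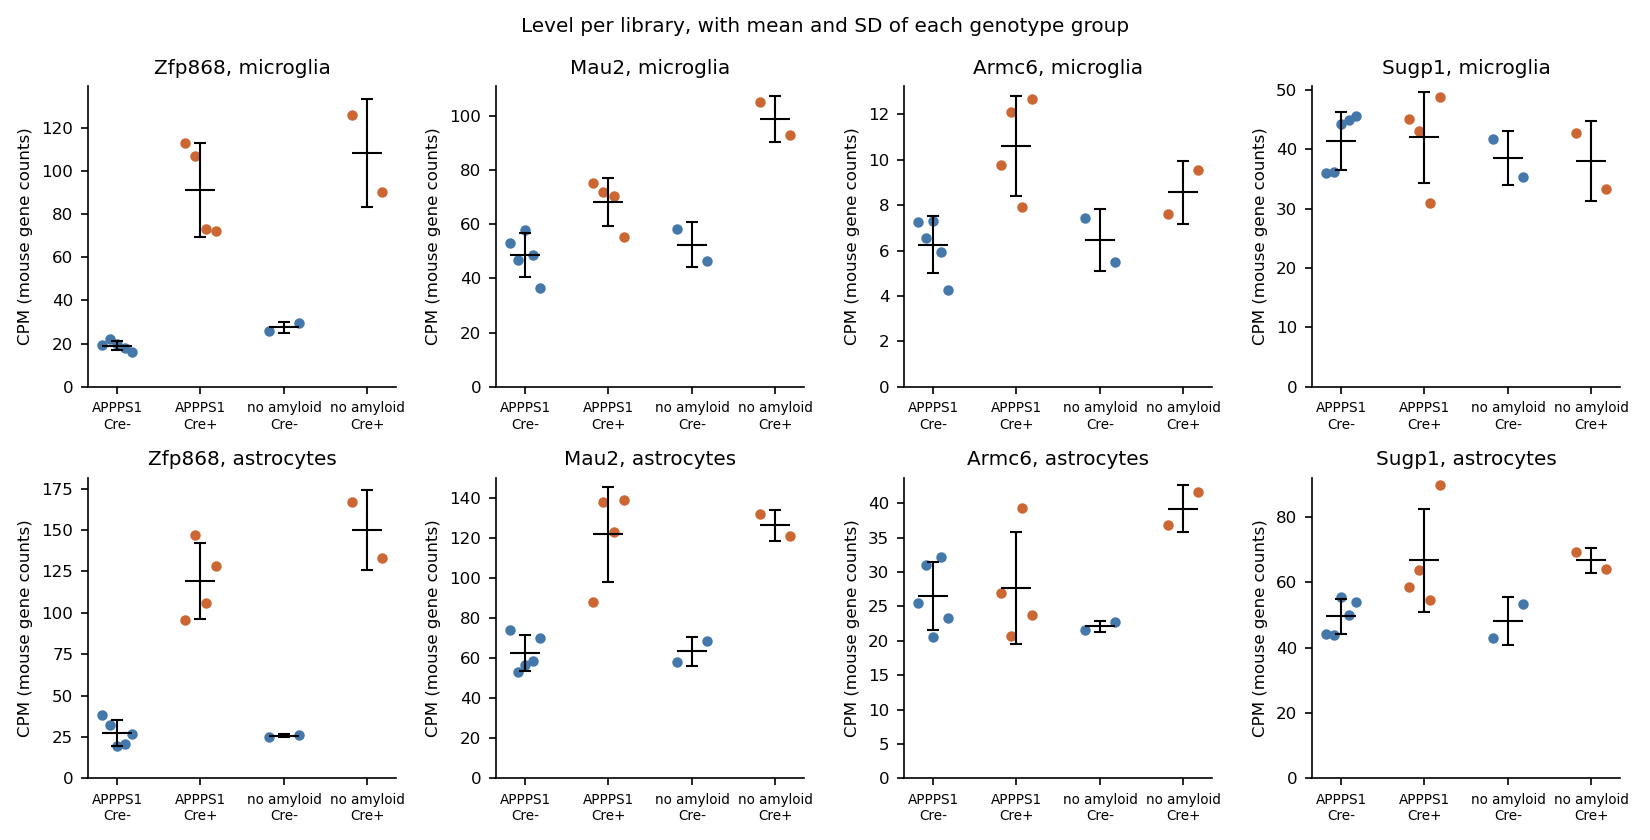
Level in CPM, counts scaled to the library's mouse gene total (vertical axis from 0), of Zfp868, Mau2, Armc6 and Sugp1 in each library, by genotype group, with microglia above and astrocytes below; points are mice, and bars give the mean and SD. Zfp868 is 72.0 CPM or more in every Cre-positive library and 38.1 CPM or less in every Cre-negative one, while the groups of the other 3 genes lie closer together or overlap.

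Zfp868 stood apart in both cell types, with Cre-positive and Cre-negative mice never overlapping. In microglia of APPPS1 mice it measured 19.3, 22.0, 19.7, 18.1 and 16.2 CPM without Cre and 113, 107, 73.2 and 72.0 CPM with Cre. In amyloid-free microglia it measured 25.7 and 29.4 CPM without Cre and 126 and 90.4 CPM with Cre. Every Cre-positive microglia library was thus above every Cre-negative one, whichever amyloid genotype the mouse had. The group means were 19.1 ± 2.15 (SD, n = 5) and 91.5 ± 22.0 CPM (n = 4) in APPPS1 microglia, a ratio of 4.79, and 27.6 ± 2.65 and 108 ± 25 CPM (n = 2 each) in amyloid-free microglia, a ratio of 3.92.

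Astrocytes, the cells in which the Cre is meant to act, gave a like picture. Zfp868 measured 38.1, 32.0, 19.5, 20.7 and 26.7 CPM in APPPS1 Cre-negative astrocytes and 95.9, 147, 106 and 128 CPM in APPPS1 Cre-positive ones. The amyloid-free values were 25.2 and 26.3 CPM without Cre and 167 and 133 CPM with Cre. The lowest Cre-positive library, at 95.9 CPM, lay well above the highest Cre-negative library, at 38.1 CPM. The fitted log2 difference was 2.06 ± 0.19 (SE) in APPPS1 and 2.54 ± 0.30 in amyloid-free astrocytes, beside 2.26 ± 0.18 and 1.88 ± 0.26 in microglia. Averaged over the amyloid genotypes it came to 2.30 ± 0.18 in astrocytes and 2.07 ± 0.16 in microglia. Whether it differed between the cell types was not tested, because the rule had used these contrasts.

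Per kb of exon, Zfp868 went from below its zinc finger neighbour Zfp869 to above it. In microglia Zfp868 averaged 7.43 ± 1.60 RPKM (SD, n = 7, CPM per kb of exon) without Cre and 33.5 ± 7.64 RPKM (n = 6) with Cre, while Zfp869 averaged 18.8 ± 4.57 and 15.4 ± 2.38 RPKM. In astrocytes the Zfp868 means were 9.31 ± 2.22 and 44.8 ± 8.98 RPKM and those of Zfp869 14.1 ± 1.88 and 13.1 ± 4.05 RPKM. The transcripts of these genes share 144 stretches of 50 bases, 9.34% of the stretches in Zfp869 and most of the 5.49% of Zfp868 stretches that occur in any other gene, so a small part of their reads could have been split between them.

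Zfp869 itself gave overlapping ranges. Its microglia values were 19.4, 27.6, 36.4, 24.7 and 26.1 CPM in APPPS1 Cre-negative mice and 25.1, 18.9, 24.9 and 24.9 CPM in APPPS1 Cre-positive mice. Amyloid-free microglia held 39.2 and 35.5 CPM without Cre and 30.4 and 22.3 CPM with Cre. In astrocytes it ranged from 17.6 to 27.2 CPM over the 7 Cre-negative and from 15.2 to 32.8 CPM over the 6 Cre-positive mice. The log2 difference averaged over amyloid was -0.40 ± 0.15 in microglia and -0.17 ± 0.18 in astrocytes, on the opposite side of 0 from Zfp868.

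Mau2, the cohesin loader subunit, came closest to Zfp868 among the other members. Its astrocyte values were 74.2, 53.4, 56.5, 58.9 and 70.4 CPM in APPPS1 Cre-negative mice and 88.1, 138, 123 and 139 CPM in APPPS1 Cre-positive mice. Amyloid-free astrocytes held 58.4 and 68.5 CPM without Cre and 132 and 121 CPM with Cre. All 6 Cre-positive astrocyte libraries were above all 7 Cre-negative ones, and the log2 difference averaged over amyloid was 0.95 ± 0.12. In microglia Mau2 measured 53.1, 47.0, 58.0, 48.7 and 36.6 CPM in APPPS1 Cre-negative mice and 75.4, 71.9, 70.6 and 55.3 CPM in Cre-positive ones. The amyloid-free microglia values were 58.3 and 46.6 CPM without Cre and 105 and 92.9 CPM with Cre. There 1 Cre-positive library, at 55.3 CPM, fell within the Cre-negative range, and the averaged difference was 0.65 ± 0.13.

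Sugp1, the back-to-back neighbour of Mau2, had higher values with Cre in most astrocyte libraries and a difference near 0 in microglia. In APPPS1 astrocytes it measured 44.1, 43.9, 55.6, 50.1 and 53.9 CPM without Cre and 58.6, 63.7, 54.7 and 89.6 CPM with Cre. Amyloid-free astrocytes held 42.9 and 53.4 CPM without Cre and 69.4 and 63.9 CPM with Cre. Of the 6 Cre-positive libraries 5 were above every Cre-negative one, and the averaged log2 difference was 0.42 ± 0.13. In microglia the 7 Cre-negative libraries ran from 35.3 to 45.7 CPM and the 6 Cre-positive ones from 31.0 to 48.8 CPM, with an averaged difference of -0.06 ± 0.15.

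Armc6 separated by Cre in microglia and overlapped in astrocytes. Its microglia values were 7.27, 6.56, 7.29, 5.92 and 4.26 CPM in APPPS1 Cre-negative mice and 9.79, 12.1, 7.92 and 12.7 CPM in APPPS1 Cre-positive mice. In amyloid-free microglia they were 7.45 and 5.49 CPM without Cre and 7.60 and 9.56 CPM with Cre. All 6 Cre-positive microglia libraries were above all 7 Cre-negative ones, though by a narrow margin, 7.60 against 7.45 CPM, and the means were 9.94 ± 2.09 and 6.32 ± 1.18 CPM (averaged log2 difference 0.53 ± 0.18). The microglia log2 difference was 0.77 ± 0.20 in APPPS1 and 0.30 ± 0.31 in amyloid-free mice. In APPPS1 astrocytes the ranges overlapped, at 20.5 to 32.2 CPM without and 20.7 to 39.3 CPM with Cre, and the log2 difference was 0.02 ± 0.20. Amyloid-free astrocytes held 21.5 and 22.7 CPM without Cre and 36.8 and 41.6 CPM with Cre, a log2 difference of 0.82 ± 0.30. Averaged over amyloid the astrocyte difference was 0.42 ± 0.18, and whether it differed from that in microglia was not tested.

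Gatad2a and Ncan showed no separation over the mice of both amyloid genotypes. Gatad2a, the NuRD subunit, ran from 17.8 to 33.4 CPM in Cre-negative and from 20.9 to 38.0 CPM in Cre-positive microglia. Its astrocyte ranges were 11.7 to 30.3 CPM and 20.4 to 25.6 CPM, and the averaged log2 differences were 0.14 in microglia and -0.05 in astrocytes. Ncan stood at 2682 ± 431 CPM (SD, n = 7) in Cre-negative and 2392 ± 405 CPM (n = 6) in Cre-positive astrocytes, with overlapping ranges and a log2 difference of -0.12 ± 0.14. In microglia Ncan was scarce, and its difference was -0.89 ± 0.68 in APPPS1 and 1.44 ± 0.97 in amyloid-free mice, 2 values of opposite sign with large errors.

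Counted over the set, 2 of the 7 genes in microglia (Zfp868 and Armc6) and 2 of 7 in astrocytes (Zfp868 and Mau2) had all Cre-positive libraries above all Cre-negative ones, beside 0.114% of all 17593 genes tested in microglia and 0.194% of 20052 in astrocytes. In APPPS1 mice alone the counts were the same, 2 of 7 in each cell type, beside 0.625% of genes in microglia and 1.32% in astrocytes. In amyloid-free mice alone, with 2 against 2 libraries, 4 of 7 in microglia and 5 of 7 in astrocytes were above, beside 29.4% and 22.8% of all genes. Zfp869 was below in both cell types in that comparison, beside 16.6% and 25.2% of all genes. Over both amyloid genotypes 0 of the 7 lay wholly below in either cell type, beside 0.0512% of genes in microglia and 0.0598% in astrocytes. Because the members were chosen on these contrasts, nothing follows from the counts. The median averaged log2 difference of the 7 genes was 0.27 in microglia and 0.42 in astrocytes, and that of all genes tested 0.03 and -0.02.

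How many genes of the whole table were called for Cre depended on the tool. By edgeR's quasi-likelihood test at an adjusted p under 0.05 the share called was 0.00568% in APPPS1, 0.0114% in amyloid-free and 0.00568% in averaged microglia, and 0.00997%, 0.204% and 0.015% in the same comparisons of astrocytes. In genes, edgeR called 1, 2 and 1 in microglia and 2, 41 and 3 in astrocytes, and DESeq2 called 6, 347 and 330 and 36, 875 and 413. With 1 library left out the edgeR count in amyloid-free mice ran from 0 to 849 in microglia and from 0 to 155 in astrocytes. Over both cell types, 2 of the 16194 genes tested in each (0.0124%) had every Cre-positive library above every Cre-negative one. They were Zfp868 and Slc18a1, both on chromosome 8, and 0 genes (0%) lay below in both.

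**Figure D2:**
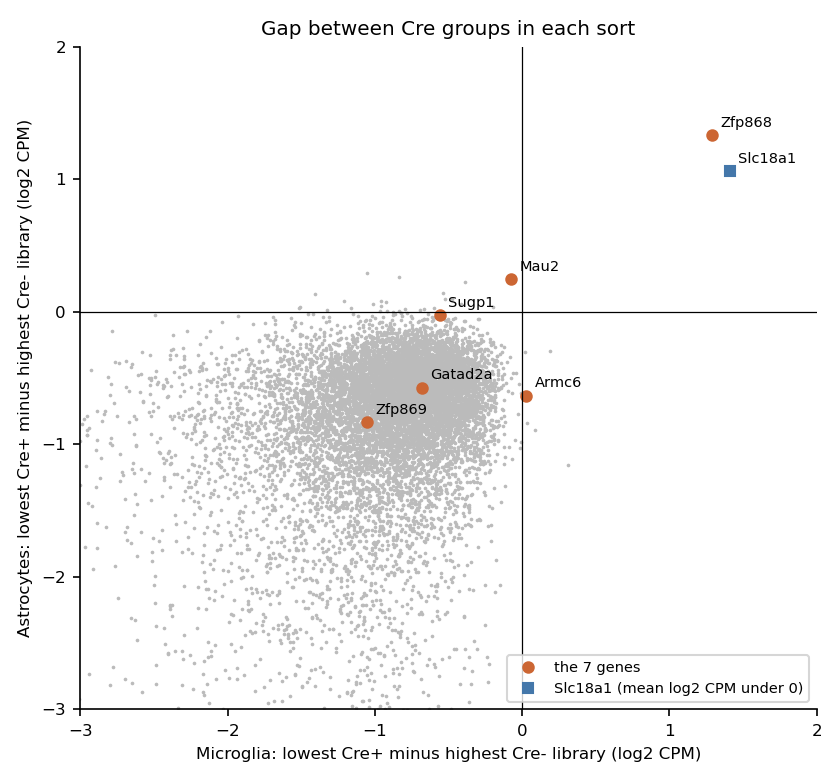
Gap in log2 CPM between the lowest Cre-positive and the highest Cre-negative library of each gene, in microglia (horizontal axis) and astrocytes (vertical axis); grey points are genes whose mean log2 CPM reached 0 in both cell types, and values above 0 mean no overlap. Zfp868 and Slc18a1, the latter drawn although it lies under that level, are the points above 0 on both axes.

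Among genes whose mean log2 CPM reached 0 in both cell types, no other had a pattern near that of Zfp868. Because Zfp868 was chosen on this same Cre contrast, its rank here is a description and carries no test. Likeness was measured as the smaller of the gaps in the 2 cell types between the lowest library of the higher Cre group and the highest library of the lower, in log2 CPM over 13 libraries per cell type, among 10782 genes whose mean log2 CPM reached 0 in both. The gap was 1.29 for Zfp868 and negative, which means overlap, for every other gene compared. Slc18a1, left out of these genes by its low level, had a gap of 1.06, also higher with Cre. Mau2 came at -0.08, higher with Cre. Of the genes compared, the nearest outside the set were Gatb at -0.07, Hdhd2 at -0.09, Psmd5 at -0.10, Arf1 at -0.12 and Ralb at -0.12. They lie on 5 other chromosomes and were all lower with Cre.

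Slc18a1, a vesicular monoamine transporter gene that is no member of the set and was singled out after its values were seen, lies 573.1 kb from Zfp868 (chr8:69037711-69089235, minus strand). In microglia it had 0.324, 0.127, 0.225, 0.331 and 0.170 CPM in APPPS1 Cre-negative mice and 1.39, 0.896, 1.10 and 1.81 CPM in APPPS1 Cre-positive mice. Amyloid-free microglia held 0.234 and 0.141 CPM without Cre and 1.42 and 2.49 CPM with Cre. These levels are low, from 6 to 16 counts in Cre-negative and from 39 to 105 counts in Cre-positive microglia libraries.

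In astrocytes Slc18a1 had 0 counts in 4 of the 7 Cre-negative libraries and 1, 3 and 11 counts in the others, against 26 to 128 counts in the 6 Cre-positive ones. The highest Cre-negative astrocyte library held 0.276 CPM and the lowest Cre-positive one 0.591 CPM. By edgeR's quasi-likelihood test with Benjamini-Hochberg adjustment over all genes, the averaged log2 difference of 2.85 ± 0.41 in microglia had an adjusted p of 0.053 and that of 4.58 ± 1.20 in astrocytes one of 0.24, so neither passed. DESeq2 called the gene in APPPS1 and in amyloid-free microglia taken apart, and gave no adjusted p for the average in microglia. The start of Slc18a1 shares 590 bases with the start of the oppositely transcribed Atp6v1b2. The averaged differences of Atp6v1b2, a proton pump subunit gene, were 0.13 ± 0.16 in microglia and 0.05 ± 0.09 in astrocytes.

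**Figure D3:**
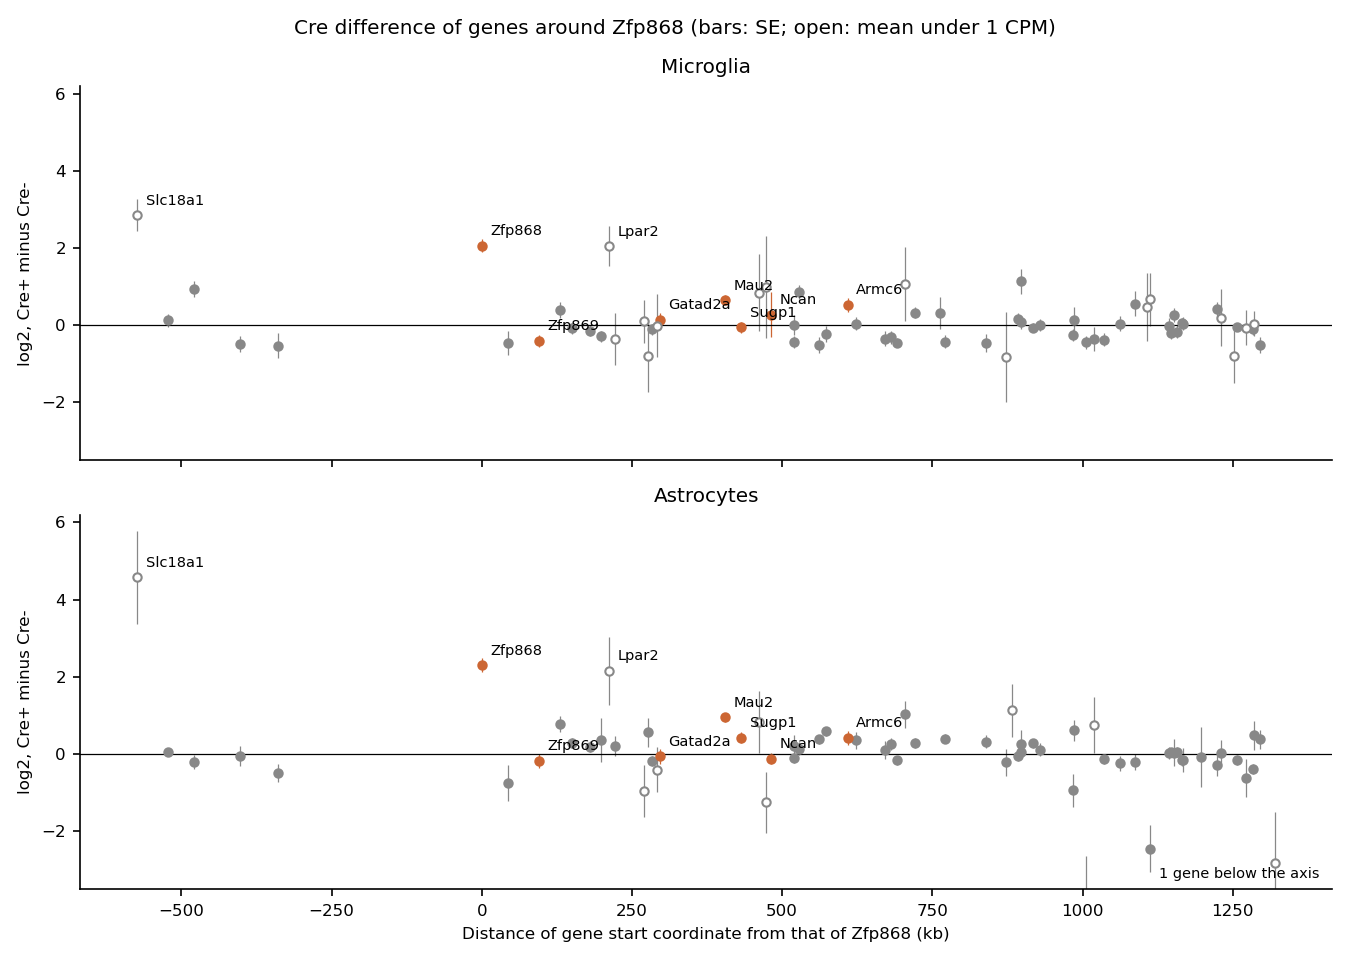
Log2 difference between Cre-positive and Cre-negative libraries, averaged over amyloid genotypes (vertical axis; bars are SE), of the genes tested around Zfp868, by distance in kb of their start coordinate from that of Zfp868 (horizontal axis), in microglia and astrocytes. Orange points are the 7 genes and open points have a mean under 1 CPM; Zfp868 stands at 2.07 and 2.30 while most neighbours stay within 0.5 of 0.

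Other genes of the neighbourhood had Cre differences on both sides of 0. From 69 to 71 Mb of chromosome 8 the annotation has 82 mouse genes in the table, of which 68 were tested in each cell type and 61 of these are no members. Of the 61, 29 had a positive and 32 a negative averaged Cre difference in microglia (median -0.03), and 35 and 26 in astrocytes (median 0.05). The difference stayed within 0.5 log2 units for 45 of 61 in microglia and 43 of 61 in astrocytes. By edgeR 0 of 61 passed in either cell type. At an unadjusted p under 0.05 there were 14 of 61 in each, where all genes gave 2410 of 17593 in microglia and 2352 of 20052 in astrocytes. Voom with limma called 0 in each, and DESeq2 4 in microglia and 3 in astrocytes.

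Other zinc finger genes flanking Zfp868 had overlapping Cre groups. Averaged over amyloid, the log2 Cre difference in microglia was -0.46 ± 0.31 for Zfp964, the nearest, 0.40 ± 0.21 for Zfp963, -0.08 ± 0.15 for Zfp866 and -0.49 ± 0.20 for Zfp930. In astrocytes the same genes had -0.74 ± 0.46, 0.78 ± 0.22, 0.30 ± 0.12 and -0.05 ± 0.27. None passed the edgeR test, where the lowest adjusted p was 0.24, while DESeq2 called Zfp963 in astrocytes, where it was higher with Cre.

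In microglia 3 of the 61 neighbours had all Cre-positive libraries above all Cre-negative ones, namely Slc18a1, Lpar2 and Lzts1, and 1 of 61, Slc18a1, in astrocytes, where all genes gave 0.114% and 0.194%. DESeq2 called Lzts1 in microglia. Lpar2, a lysophosphatidic acid receptor gene, had 0.103 to 0.626 CPM in the 7 Cre-negative and 0.985 to 2.40 CPM in the 6 Cre-positive microglia libraries, a log2 difference of 2.05 ± 0.52 (edgeR adjusted p = 0.21). Its astrocyte groups overlapped, at a difference of 2.15 ± 0.89 (edgeR adjusted p = 0.38). For Lzts1, a leucine zipper gene, the microglia difference was 0.94 ± 0.21 (edgeR adjusted p = 0.21) and the astrocyte one -0.21 ± 0.18.

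Mouse 459, the Cre-positive APPPS1 animal left out above, gave values that the rule had not used. Its library labelled microglia carried 23263 CPM of 8 summed astrocyte markers and 82.2 CPM of 8 microglia markers, and its library labelled astrocyte 179 and 29236 CPM, so the libraries go against their labels. Zfp868 was at 142 CPM in the library labelled microglia and 82.3 CPM in the library labelled astrocyte. Both exceeded the highest of the 14 Cre-negative libraries of either cell type, which held 38.1 CPM. Slc18a1 was at 0.59 and 1.6 CPM in the same libraries, and the highest of those 14 held 0.331 CPM.

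The remaining members of mouse 459 differed in how far they followed. Mau2 measured 106 and 63.3 CPM and Armc6 27.2 and 9.24 CPM in the libraries labelled microglia and astrocyte. Sugp1 measured 74.9 and 36.2 CPM, Zfp869 23.8 and 21.5 CPM and Gatad2a 14.9 and 26.9 CPM. Ncan, an astrocyte-rich transcript, stood at 2870 and 0.565 CPM. As a single animal, mouse 459 gave no test.

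The rule did not use the variation among mice of 1 Cre status, so the level of each gene in the microglia library was set against that in the astrocyte library of the same mouse number. Among the 6 Cre-positive mice Zfp868 gave Pearson r = 0.36 (exact permutation p = 0.45, two-sided) and Spearman rho = 0.37 (exact permutation p = 0.497), and r = 0.18 without the 2 mice farthest from the median. Among the 7 Cre-negative mice it gave r = 0.08 (exact permutation p = 0.877) and rho = -0.07 (exact permutation p = 0.906). A mouse high in Zfp868 in 1 cell type was therefore not detectably high in the other. Mice of both amyloid genotypes were pooled for all of these relations, without adjustment for amyloid. Of the 14 relations, 2 per gene, none passed, and the lowest Benjamini-Hochberg adjusted Pearson p, from the exact permutations, was 0.515. It belonged to Armc6 and Zfp869 in Cre-positive mice, at r = -0.83 and -0.80.

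Amyloid was compared independently of the rule, as APPPS1 against amyloid-free mice averaged over Cre. In microglia 1 of the 7 genes passed edgeR's quasi-likelihood test, beside 9.58% of all genes tested. The gene was Ncan, lower with amyloid by a log2 difference of -2.35 ± 0.56 (edgeR adjusted p = 0.020). Zfp868 did not pass, at -0.24 ± 0.15 (edgeR adjusted p = 0.33), nor did Sugp1 and Armc6, both at 0.27, Mau2 and Zfp869, both at -0.18, or Gatad2a at -0.05 (edgeR adjusted p from 0.28 to 0.87). The median over the 7 genes was -0.18, and over all genes tested -0.05.

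Ncan was scarce in every microglia library. It measured 1.46, 0.613, 3.48, 0.662 and 0.745 CPM in APPPS1 Cre-negative and 1.21, 1.43, 0.141 and 0.138 CPM in APPPS1 Cre-positive microglia. Amyloid-free microglia held 2.36 and 4.30 CPM without Cre and 9.29 and 9.91 CPM with Cre. The Cre-positive amyloid-free libraries were the highest, and 1 Cre-negative amyloid-free library, at 2.36 CPM, lay below the highest APPPS1 library, at 3.48 CPM. The call did not hold in Cre-negative mice alone (-1.19, edgeR adjusted p = 0.62), without mouse 26 (-2.31, adjusted p = 0.067) or without mouse 759 (-2.08, adjusted p = 0.091), both amyloid-free.

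**Figure D4:**
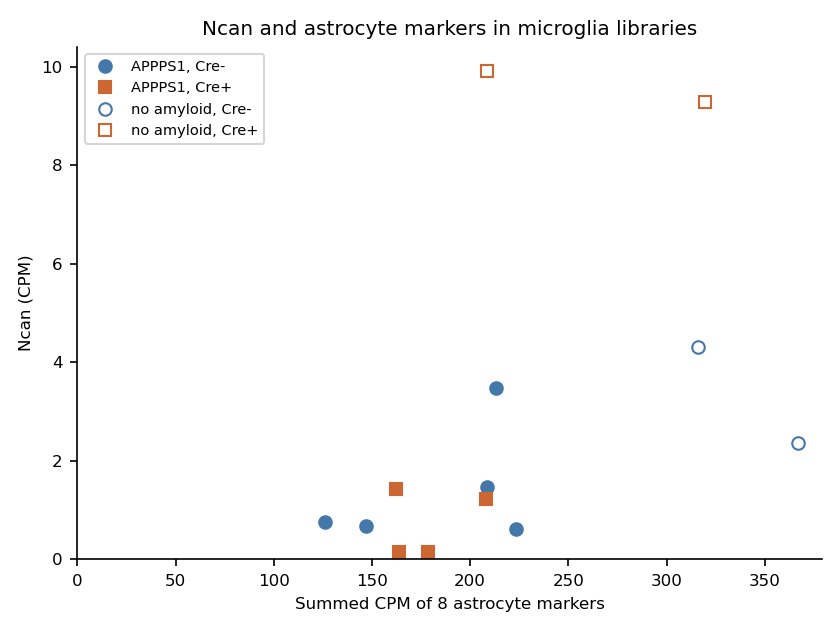
Ncan in each microglia library (vertical axis, CPM) against the summed level of 8 astrocyte markers in the same library (horizontal axis, CPM), by genotype group. The marker sum is 126 to 223 CPM in APPPS1 and 208 to 367 CPM in amyloid-free microglia, and Ncan is highest, at 9.29 and 9.91 CPM, in the amyloid-free Cre-positive libraries.

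Markers of astrocytes and of neurons also had a higher median sum in amyloid-free than in APPPS1 microglia libraries. The 8 markers (Aldh1l1, Slc1a2, Slc1a3, Gja1, Aqp4, Gfap, Ntsr2 and Slc6a11) summed to 126 to 223 CPM in the 9 APPPS1 and 208 to 367 CPM in the 4 amyloid-free microglia libraries, with at least 6 of 8 detected in each, against 15810 to 24732 CPM in the astrocyte libraries. Within the amyloid-free mice the astrocyte sum was 316 and 367 CPM without Cre and 208 and 320 CPM with Cre, so the groups overlapped. The 7 neuron markers summed to 3.17 to 11.2 CPM in APPPS1 and 11.3 to 30 CPM in amyloid-free microglia, without overlap. Mouse 26, amyloid-free and Cre-positive with Ncan at 9.91 CPM, stood apart, with microglia markers at 15200 CPM where the other 12 libraries held 28510 CPM or more, and with endothelial markers at 192 CPM where the others held 25.8 to 75.5 CPM. The part of any of these markers' cells in the Ncan result was not tested. In bulk RNA fewer cells of a type and less RNA per cell cannot be told apart.

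In astrocytes 0 of the 7 genes passed for amyloid, beside 0% of all genes tested. None of the 7 lay under an unadjusted p of 0.05, the lowest being 0.37 for Ncan by edgeR, and DESeq2 and voom called 0 of the 7 as well. Zfp868 differed by -0.14 ± 0.17 (edgeR adjusted p = 0.96). The median over the 7 genes was -0.13 and over all genes 0.04.

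Between the cell types, 4 of the 7 genes passed, beside 76.5% of all genes tested. Ncan was lower in microglia by a log2 difference of -9.62 ± 0.48 (edgeR adjusted p = 2.9e-14) and Armc6 by -1.40 ± 0.14 (edgeR adjusted p = 4e-09). Zfp869 and Gatad2a were higher in microglia, by 0.84 ± 0.13 (edgeR adjusted p = 2.5e-06) and 0.71 ± 0.13 (edgeR adjusted p = 3e-05). Zfp868, Sugp1 and Mau2 did not pass, at 0.15 ± 0.12, -0.04 ± 0.11 and 0.01 ± 0.09 (edgeR adjusted p of 0.26, 0.76 and 0.95).

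The scale matters for this comparison. The median of all genes was -0.18 with TMM scaling and -0.30 with DESeq2's size factors, which put Zfp868 at 0.03, Sugp1 at -0.16 and Mau2 at -0.11, still not called, and left the same number of 4 calls. Relative to the library total alone, the mean of Mau2 was 63.0 ± 19.5 CPM (SD, n = 13) in microglia and 90.9 ± 34.2 CPM in astrocytes, and that of Sugp1 40.7 ± 5.57 and 57.2 ± 12.7 CPM. For the called genes Zfp869 and Gatad2a the means were 27.3 ± 6.34 and 27.8 ± 6.13 CPM in microglia. In astrocytes they were 21.6 ± 4.74 and 23.3 ± 4.45 CPM. The ranges of both genes overlapped between the cell types on this scale, on which no test was run.

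Per kb of exon, Ncan was the most abundant member in astrocytes, at 354 ± 59.6 RPKM (SD, n = 13), and the least in microglia, at 0.38 ± 0.46 RPKM. In Cre-negative astrocytes the order below Ncan was Zfp869 at 14.1 ± 1.88 RPKM (n = 7), then Zfp868 at 9.31 ± 2.22, Sugp1 at 8.04 ± 0.88, Armc6 at 7.74 ± 1.41, Mau2 at 6.89 ± 0.87 and Gatad2a at 4.14 ± 1.07 RPKM. The neighbours from Zfp868 to Mau2 in this order lay within 1 SD of each other. In Cre-negative microglia Zfp869 led at 18.8 ± 4.57 RPKM, followed by Zfp868 at 7.43 ± 1.60, Sugp1 at 6.65 ± 0.76, Mau2 at 5.45 ± 0.83, Gatad2a at 4.74 ± 1.12 and Armc6 at 1.94 ± 0.36 RPKM. Zfp868, Sugp1, Mau2 and Gatad2a again had neighbouring ranges that overlapped.

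Genes of complexes or pathways related to the members were followed as 5 lists, with the members left out of the counts. The lists held 10 genes of KRAB zinc finger silencing, 12 of NuRD, 10 of cohesin and its loader, 9 of branch point splicing and 9 of the perineuronal matrix. For Cre averaged over amyloid, 0 of 45 tested list genes passed in microglia by edgeR, where 2 had an unadjusted p under 0.05 and DESeq2 and voom called 0. In astrocytes 0 of 50 passed, where 4 had an unadjusted p under 0.05, voom called 0 and DESeq2 called 1 (Chd4).

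In APPPS1 mice and in amyloid-free mice taken apart, edgeR called 0 list genes in either cell type, while DESeq2 called Bcan and Chd4 in amyloid-free astrocytes. The values that follow are from APPPS1 mice. Trim28, the corepressor of KRAB proteins, differed by 0.20 ± 0.14 in astrocytes (edgeR adjusted p = 0.87). Nipbl, the partner of Mau2, and Smc3, a cohesin ring subunit, differed by 0.27 ± 0.11 and 0.26 ± 0.09 there (edgeR adjusted p of 0.71 and 0.70). The NuRD subunit Chd3 stood at 0.51 ± 0.22 in astrocytes and -0.32 ± 0.22 in microglia (edgeR adjusted p of 0.73 and 1). The splicing factor U2af1 differed by 0.32 ± 0.22 in astrocytes (edgeR adjusted p = 0.87). Hapln1, a link protein of the perineuronal matrix, differed by -0.58 ± 0.20 in astrocytes (edgeR adjusted p = 0.70).

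With amyloid, 9 of 45 list genes passed in microglia by edgeR, 2 higher and 7 lower, beside 9.58% of all genes. DESeq2 called 8 of 45, beside 2722 of 17516 genes, and voom 10 of 45, beside 1843 of 17593 genes. Over all genes that edgeR count ran from 392 to 2441 with 1 library left out. In the KRAB silencing list Uhrf1, a maintenance methylation factor, rose by 2.12 ± 0.45, and Atf7ip fell by 0.89 and Morc3 fell by 0.53. Rbbp7 of NuRD rose by 0.57 ± 0.13, while Pds5a of cohesin fell by 0.55 and Sf3b1 of the branch point complex fell by 0.50. In the perineuronal list 3 of 4 tested genes fell, with log2 differences of -2.65 for Bcan, -2.53 for Vcan and -5.03 for Hapln1, as did Ncan. The remaining gene, Hapln4, lay on the other side of 0 at 2.62 ± 1.33 and did not pass (edgeR adjusted p = 0.22). DESeq2 called 1 of the 4 tested list genes, Bcan. The astrocyte and neuron marker sums given above for Ncan had a lower median in the same APPPS1 libraries. The oligodendrocyte precursor sum had a higher one there. These links were not tested. The 9 genes called by edgeR are named because they passed. Astrocytes held 0 of 50.

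Between the cell types 38 of 50 list genes passed, beside 76.5% of all genes tested. The perineuronal list had 0 of 9 genes higher and 8 of 9 lower in microglia, the side on which Ncan lay. The KRAB silencing list had 7 of 10 higher and 1 lower, NuRD 5 of 12 higher and 2 lower, cohesin 7 of 10 higher and 2 lower, and branch point splicing 5 of 9 higher and 1 lower. Mau2 and Sugp1 did not pass in that comparison, and Gatad2a was higher.

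Among the facts of the whole series, total counts ran from 26162612 to 63802747 per library. Human APOE, the gene to be removed in astrocytes, ranged from 507 to 827 CPM in APPPS1 Cre-positive and from 1273 to 1864 CPM in APPPS1 Cre-negative astrocytes, which checks the Cre labels there. In amyloid-free astrocytes it ranged from 521 to 926 CPM with Cre and from 1052 to 1411 CPM without. In microglia the Cre groups overlapped, at 328 to 1050 CPM with and 110 to 815 CPM without Cre in APPPS1 mice. Amyloid-free microglia held 77.5 to 99.8 CPM with and 71.8 to 102 CPM without Cre. Human APOE thus gave no check of the Cre labels of microglia libraries. Microglia markers summed to 15200 to 35986 CPM in microglia libraries other than that of mouse 459 and 58.4 to 94.1 CPM in the astrocyte ones. Oligodendrocyte markers reached 2149 to 20041 CPM in the astrocyte libraries, so these libraries also carried oligodendrocyte RNA.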

How the data were processed

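RNA of FACS-sorted microglia and astrocytes was made into libraries with the SMARTer method, per the labels' protocols. The authors deposited raw gene counts, made with bcl2fastq, STAR and featureCounts on GRCm38 and GRCh38, per the submitters' processing notes. Settings and strand use are not given in the sources used here. The table had 95966 rows. Repeated rows of 258 gene IDs, identical in their counts, were dropped, and GENCODE M21 (GRCm38) matched 40340 of 40481 mouse genes. Human genes took 0.042% to 0.237% of counts and were left out of scaling and tests. Levels are CPM, counts scaled to the mouse gene total of a library. RPKM divides CPM by exon length in kb.

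Mouse genes were tested with edgeR 4.0.16 (R 4.3.3), with its default filter by group, TMM scaling and quasi-likelihood F tests on 1 term per genotype group. The fit held 13 libraries of a cell type, or all 26 between cell types, without mouse 459. Benjamini-Hochberg adjustment ran over the whole table of tested genes, and calls were made at an adjusted p under 0.05. SE is the log2 difference over the square root of F. DESeq2 1.42.0, its size factors in edgeR, voom with limma 3.58.1, no filter, only the groups compared, mouse 459 kept as labelled and each library left out were tried. The fits were tested on simulated counts. Single libraries were put on a log2 scale with a pseudocount of 0.5 counts. All 7 genes matched a RefSeq promoter. Shared sequence was counted as exact stretches of 50 bases over GENCODE M21 transcripts.

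The lowest chi-square per degree of freedom between libraries of 1 group was 36.7, so libraries of a group differed by more than counting error. A count of 0 allows up to 3 counts, for counting error only, since reads carried no molecular identifiers. The labels give 5 mice in each APPPS1 group and the series text 4. The labels do not say that libraries came from separate litters or sorting days.

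The number in a library's title was read as the mouse, which pairs its microglia and astrocyte libraries. Over 7255 genes, the deviations of such pairs from their group means correlated from -0.132 to 0.34, above 0.1 in 3 of 13 pairs, and 1 pair correlated best with its own number.

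The members and gene lists were chosen with earlier results of these data known. The text names the 7 members, tested genes from 69 to 71 Mb of chromosome 8, up to 4 genes per list with the lowest p for Cre in APPPS1 mice, and up to 5 genes most like Zfp868.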

Additional observations from a re-analysis of the deposited data

Results flagged for a closer look

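In microglia of APPPS1 Cre-positive mice, Zfp869 was at 18.9 CPM in mouse 458, far below the other 3 mice, the nearest of which held 24.9 CPM. The gap was 0.968 of the group's range (n = 4). Of the 28 groups of 4 or 5 libraries looked at for the 7 genes, 1 had such a library, where chance gives about 1 in 20.

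Zfp868 and Slc18a1 also exceeded the Cre-negative level in the 2 libraries of mouse 459. No main comparison used these libraries, only the setting that kept mouse 459 as labelled. Zfp868 was at 142 CPM in the library labelled microglia and 82.3 CPM in the library labelled astrocyte, where the highest of 14 Cre-negative libraries held 38.1 CPM. Slc18a1 was at 0.59 and 1.6 CPM, where the highest held 0.331 CPM.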

How the results depend on the processing

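The log2 Cre difference of Zfp868, averaged over amyloid, was 2.04 to 2.07 in microglia and 2.30 to 2.32 in astrocytes over the other settings, and 1.90 to 2.18 and 2.22 to 2.37 with each library left out. The 1 member called for amyloid in microglia, Ncan, became 0 in Cre-negative mice only (an alternative chosen after seeing the data) and 0 with mouse 459 kept as labelled, where Ncan reversed to 2.24, and 0 to 1 with a library left out (0 without mouse 26 or 759). With mouse 459 kept, the Ncan Cre difference in APPPS1 microglia was 8.27. Between cell types the replicate block on mouse number called 4 of 7 members and 15892 genes, against 4 and 16535 without it, and changed no other call of a member. Genes called for Cre averaged over amyloid numbered 1 in microglia by edgeR, 330 by DESeq2, 103 without a filter and 1 to 748 with a library left out (748 without mouse 22), and in astrocytes 3, 413, 6 and 1 to 34. In amyloid-free mice they numbered 2 by edgeR, 347 by DESeq2 and 146 without a filter in microglia, and 41, 875 and 140 in astrocytes, and ran from 0 to 849 and from 0 to 155 with a library left out. In APPPS1 mice they numbered 1 by edgeR and 6 by DESeq2 in microglia, and 2 and 36 in astrocytes. For amyloid in microglia the count was 1685 by edgeR, 2722 by DESeq2, 55 in Cre-negative mice only, 19 with mouse 459 kept and 392 to 2441 with a library left out, and for amyloid in astrocytes 0 by edgeR, 254 by DESeq2 and 133 in Cre-positive mice only. The cause of these shifts was not tested.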
